A study of Mus musculus with 60 samples.

Results

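The clustered histone genes encode the linker histone H1 and the core histones H2A, H2B, H3 and H4, and they lie in compact groups on chromosomes 13, 3, 11 and 6 of the mouse. Members were all genes of the deposited count table with a symbol of the form Hist1h, Hist2h, Hist3h or Hist4h and at least 10 counts over the 60 libraries. This rule took 54 of the 54532 genes of the table, out of 70 genes with such a symbol. Of the 16 symbols left out, 12 had no read and 4 had 1 to 5 reads (Hist1h4b had 5), while the lowest member had 14. Several of the 16 share nearly all their sequence with other genes, so a lack of reads does not show a lack of RNA. The 54 members were 5 H1, 12 H2A, 15 H2B, 10 H3 and 12 H4 genes. Of these, 37 passed the filter on low counts and were tested, and 17 were too low for a test.

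RNA was taken from 15 tissues of female C57BL6/J mice of 6 weeks, with 4 replicates of each tissue, 60 libraries in all. The mice were untreated and wild type as far as the labels say, and all had been perfused through the heart with saline and EDTA before the organs were removed. The tissues were bone marrow, thymus, spleen, inguinal lymph node, mesenteric lymph node, blood, small intestine, colon, liver, lung, heart, kidney, brain, skin and female reproductive tract. Blood is called peripheral blood mononuclear cells in the sample titles and whole blood in the tissue label. Each tissue is a mixture of cell types, so fewer cells of a type and less RNA per cell cannot be told apart. Nothing in the labels says which same-numbered libraries came from 1 mouse, and p-values measure the spread between the libraries of a tissue.

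Most clustered histone genes are replication-dependent. Their mRNA is made while DNA is copied, and it ends in a short stem-loop in place of a poly(A) tail. The stem-loop binding protein SLBP holds this end, and the mRNA is broken down when DNA synthesis stops. Some of these genes can also give a longer, polyadenylated mRNA in cells that have left the cell cycle. The assay primed cDNA from oligo(dT), so a read of a member counts RNA that carried a run of A, at its tail or within it, and RNA that ends at the stem-loop is not primed at a tail.

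The median library held 2649668 counts, and the range ran from 353605 (female reproductive tract replicate 3) to 5211133 (replicate 1 of inguinal lymph node). Levels are given as CPM, read counts relative to the library total, after TMM scaling, which adjusts these totals for differences in composition. They are not divided by transcript length, so levels are compared between tissues and not between genes. In each of 17 marker lists the summed level was highest in the tissue that the list marks, and 1 marker of lymph node stroma had no read in inguinal lymph node. The 8 colon and lung libraries stood apart from the other 52. The nuclear RNA Malat1 took 0.0151% to 0.0282% of their counts, against 0.131% to 1.65% elsewhere, and mitochondrial rRNA took 0.233% to 0.928%, against 4.33% to 40.6%.

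The stem-loop was looked for in the transcripts of GENCODE M21 (mouse build GRCm38) as GG, any 2 bases, CTTTT, any base, AG, any 2 bases and CC after the stop codon, on the sense strand. It was found in 59 of 21674 protein-coding genes (0.272%), of which 43 were clustered histone genes and 36 were members. In the 36 members it began 21 to 54 bases after the stop codon. The sites of 8 members are printed here because both expression patterns described further on have the same element. The first 4 genes were highest in bone marrow and the last 4 in blood or colon. Capitals mark the 16 matched letters.
Hist1h1e: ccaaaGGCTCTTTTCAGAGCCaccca
Hist1h4d: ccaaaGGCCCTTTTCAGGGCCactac
Hist1h2ae: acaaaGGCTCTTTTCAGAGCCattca
Hist1h3c: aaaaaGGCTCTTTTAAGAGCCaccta
Hist1h1c: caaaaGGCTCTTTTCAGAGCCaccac
Hist1h4i: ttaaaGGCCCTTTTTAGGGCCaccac
Hist1h2ac: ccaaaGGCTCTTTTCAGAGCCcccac
Hist2h3c2: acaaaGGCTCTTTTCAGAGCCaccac
These sites lie on GRCm38 at chr13:23621777-23621802 (minus strand), chr13:23581945-23581970 (plus), chr13:23570663-23570688 (minus), chr13:23745042-23745067 (minus), chr13:23739507-23739532 (plus), chr13:22040961-22040986 (minus), chr13:23683472-23683497 (minus) and chr3:96238480-96238505 (minus), in that order. All are in the part of the transcript after the stop codon. The core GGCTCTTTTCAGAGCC was the most frequent and stood in 20 members, and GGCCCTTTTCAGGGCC stood in 7, all of them H4 genes.

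Members were placed in 3 classes by their tissue means. The dividing class had its highest mean in bone marrow, thymus or small intestine and a Spearman correlation of at least 0.5 over the 15 tissues with a division score. That score is the mean log2(CPM + 1) of 28 cell division genes such as Mki67, Top2a and the Mcm helicase genes. The blood or colon class had its highest mean in blood or colon, and the remaining members form the other class. This gave 25 dividing, 8 blood or colon and 4 other members. Just inside the limit of 0.5 was Hist1h3e at 0.56, and Hist2h4, also highest in bone marrow, was outside at 0.17. The classes were read from these same levels, so the place of the highest level and the correlation with the score are descriptions and no test of a class. The 25 dividing members had a correlation of 0.56 to 0.91 with the score (median 0.72), the 8 blood or colon members -0.49 to 0.66 and the 4 others -0.34 to 0.28. These correlations are over tissue means that share libraries and depth.

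**Figure D1:**
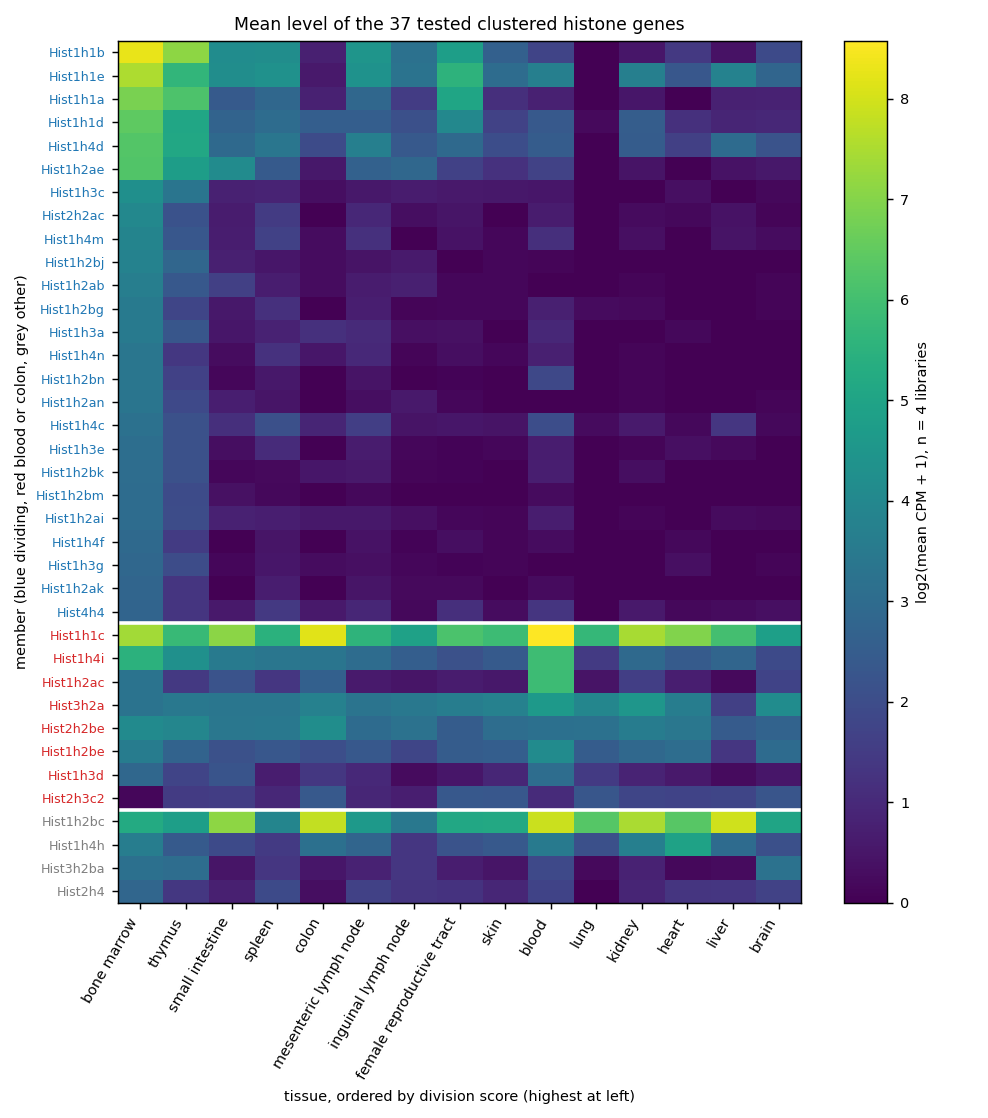
Mean level of the 37 tested members (rows) in the 15 tissues (columns, ordered by division score), as log2(mean CPM + 1) over 4 libraries. The 25 members of the dividing class are brightest in bone marrow and thymus, while Hist1h1c and Hist1h2bc are bright in blood, colon, kidney and small intestine.

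Over all members, bone marrow had the highest mean for 43 of 54, blood for 6, colon for 2, and brain, heart and liver for 1 each. The summed level of the 54 members was 1405 ± 63.4 CPM in bone marrow (SD, n = 4), 848 ± 170 in blood, 592 ± 57.5 in colon and 582 ± 56.2 in thymus. It ranged from 108 ± 6.43 CPM in inguinal lymph node to 446 ± 82.5 in kidney among the other 11 tissues. With library totals in place of TMM the sum was 117 CPM in heart and 182 in liver, down from 282 and 361, while bone marrow stayed highest. The makeup of the sums differed between tissues. The dividing class gave 73.1% ± 0.525 of the sum in bone marrow and 71.4% ± 3.40 in thymus, but 4.84% ± 0.747 in blood, 2.51% ± 1.13 in colon and 0.315% ± 0.414 in lung. Hist1h1c and Hist1h2bc alone gave 86.4% ± 1.22 of the sum in colon, 85.6% ± 0.885 in liver and 72.4% ± 1.75 in blood, against 14.5% ± 0.710 in bone marrow.

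The dividing class holds 4 linker histones, which bind the DNA between nucleosomes. Hist1h1b (ENSMUSG00000058773, chr13:21779883-21780625 on the minus strand), which encodes an H1 of proliferating cells, had 287, 312, 333 and 303 CPM in the bone marrow libraries and 119, 129, 128 and 176 in thymus. In blood it had 0, 2.66, 5.02 and 1.95 CPM, in colon 0.848, 1.03, 0.839 and 0, and in the 4 lung libraries no read. The bone marrow libraries were above all others, and thymus was above all but bone marrow.

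Hist1h1e had 176, 159, 204 and 197 CPM in bone marrow and 48.7, 44.2, 48.3 and 54.6 in thymus. It was also read in blood, at 8.52, 12.9, 16.1 and 10.1 CPM, while colon held 2 reads in all and lung none. Hist1h1a had 101, 110, 123 and 125 CPM in bone marrow and 61.6, 57.5, 60.97 and 109 in thymus, and these 2 tissues overlapped. Hist1h1d had 81.2, 77.7, 95.3 and 88.1 CPM in bone marrow and 25.4, 24.8, 32.5 and 46.8 in thymus. The 4 linker genes of the class summed to 693 ± 50.9 CPM in bone marrow and 292 ± 63.3 in thymus.

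The core histones of the class followed the same order of tissues. Hist1h4d, an H4 gene, had 81.2, 75.6, 83.4 and 64.8 CPM in bone marrow and 25.95, 33.9, 40.5 and 37.6 in thymus. Hist1h2ae, an H2A gene, had 79.2, 84.2, 73.7 and 66.04 CPM in bone marrow, 29.8, 34.2, 27.1 and 15.1 in thymus and 15.7, 18.7, 20.2 and 11.95 in small intestine. Thymus and small intestine overlapped for Hist1h2ae. Hist1h3c, an H3 gene, had 18.2, 18.1, 17.6 and 19.9 CPM in bone marrow and 8.55, 6.13, 10.4 and 11.004 in thymus, with tissue means under 1 CPM everywhere else. Hist2h2ac, an H2A gene of the chromosome 3 cluster, had 14.4, 22.02, 11.2 and 12.3 CPM in bone marrow and 3.24, 2.91, 4.00 and 3.67 in thymus.

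The other 17 dividing members had bone marrow means of 5.79 CPM (Hist4h4) to 13.6 CPM (Hist1h4m). In 23 of the 25 the order was bone marrow first and thymus second. Blood came second for Hist1h2bn, and spleen for Hist4h4. In 20 of the 25 the lowest bone marrow library was above every library of the other tissues. The class was chosen partly for a high level there, and the same share over all genes was not taken, so this count is a description. All 17 members too low for a test had their highest mean in bone marrow as well, at 1.11 to 8.53 CPM, with 14 to 125 reads over all libraries. Several of these genes share sequence: the median share of unique 50-base words in the transcript was 50.5% in the dividing class and 34.2% among the untested members, so reads may have been lost or split between copies. For Hist1h4m it was 10.2%. Among the 16 genes left out for fewer than 10 reads the median was 15.45%, with a range of 0 to 100%. Hist1h3e shares its last 200 bases with other genes throughout, as does Hist1h1e. The latter overlaps an annotated transcript of Hist1h2be on the same strand, so the levels of these 3 genes are uncertain. Hist1h2ac and Hist3h2a overlap the annotated genes Gm24991 and Trim17 on the same strand. On either strand, 7 of 25 dividing and 3 of 8 blood or colon members overlap another gene. The strand setting of the counting is not given, so the effect of such overlaps on the levels was not tested.

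The mean of bone marrow and thymus was compared with that of the other 13 tissues, on the log scale with each tissue weighted alike. Of the 37 tested members 30 were higher and 1 was lower (edgeR quasi-likelihood test, adjusted p below 0.05 and a log2 fold change beyond 1 in size). Of all 18562 genes tested, 16.3% were higher and 14.8% were lower. Hist1h1d was higher by 4.31 ± 0.19 on the log2 scale (SE, edgeR adjusted p = 2.15e-28), with 58.98 against 4.25 CPM on average. The 1 member that was lower was Hist2h3c2 (-2.07 ± 0.52, edgeR adjusted p = 0.000441), an H3 gene with 0.412, 0, 0 and 0 CPM in bone marrow. Hist1h2bc missed the fold limit at -0.998 ± 0.11 and was called lower under 3 other settings and 6 of the 8 fits that left out 1 library of bone marrow or thymus.

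In that comparison the median log2 difference was 4.31 over the 37 members, against -0.11 over all genes. Of the 37, 24 had no read in at least 1 of the 15 tissues. For a second measure, log2 of the plain tissue means was used, with every tissue below 3 counts over its 4 libraries raised to that level. By this measure the median was 3.44. Passing the filter bears on these numbers, since 15 of the 37 members, 14 of them dividing, reached the minimum of 3.77 CPM of library totals in fewer than 4 libraries outside bone marrow and so passed through bone marrow. The 2 tissues together lay above every other library for 10 of the 37 members, against 1.71% of all genes.

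Markers of several blood cell types were higher in the same comparison, with 7 of 7 of neutrophil precursors (median 6.34), 7 of 8 of red cell precursors (3.69), 6 of 7 of thymocytes (5.27) and 7 of 7 of T cells (3.59). Of platelet markers 3 of 6 were higher. Of monocyte and macrophage markers 1 of 7 was higher and 1 was lower (median 0.43). The part of these cell types in the histone levels was not tested. All 28 division genes were higher too. Among genes of histone supply, of 17 tested genes for histone mRNA processing and transcription 8 were higher and none was lower, with a median of 0.99. They included Ccne1 (3.49 ± 0.13), a cyclin of the start of DNA synthesis, Cdk2 (2.24 ± 0.10), its kinase, Slbp (1.98 ± 0.12), which encodes the stem-loop binding protein, and Casp8ap2 (1.87 ± 0.06), a factor of histone gene transcription. Of 20 histone chaperone genes 12 were higher, among them Asf1b (4.32 ± 0.12) and Chaf1b (3.23 ± 0.18), which hand new H3 and H4 to DNA. Replacement histones, whose genes lie outside the clusters, were divided. H2afx (3.05 ± 0.06) and Cenpa (2.89 ± 0.07), the centromeric H3, were among 6 of 11 that were higher, while H1f0 (-1.45 ± 0.09), a linker histone of non-dividing cells, and H2afy2 (-1.10 ± 0.36) were lower.

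**Figure D2:**
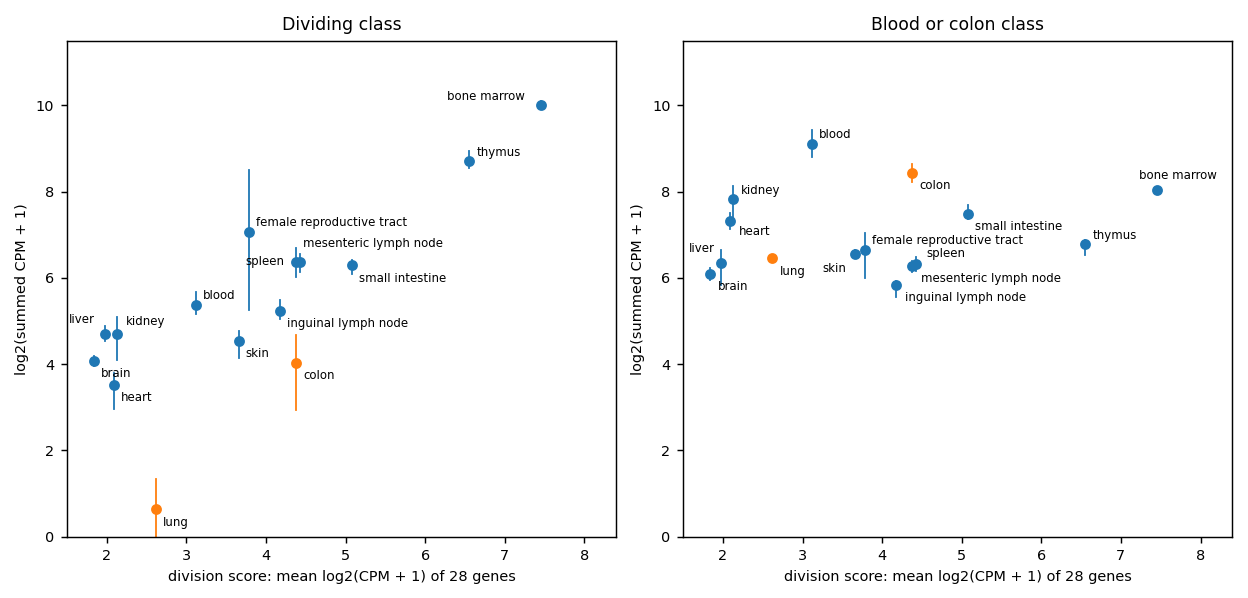
Summed level of the dividing class (left) and of the blood or colon class (right) against the division score of each tissue, as log2(summed CPM + 1). Points are means of 4 libraries and lines run from the lowest to the highest library. Colon and lung, in orange, lie low on the left, and blood and colon are the 2 highest tissues on the right.

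Across tissues the dividing class did not keep to the division score everywhere. Over the 15 tissues its summed level had a Spearman correlation of 0.70 and a Pearson correlation of 0.81 with the score, and over the 13 tissues without colon and lung 0.85 and 0.94. Members entered the class by a correlation of at least 0.5 with this same score. A positive value was therefore favoured by the choice, and these correlations are a description. Colon and lung were left out after their low levels had been seen. By its score colon was the fifth of the 15 tissues (4.37 ± 0.335), beside mesenteric lymph node (4.37 ± 0.324), but its dividing members summed to 15.2 ± 7.78 CPM, against 81.8 ± 19.7. Lung had 3 reads of the dividing class among 4111590 counts, on 3 of the 25 genes, while 1164 of its counts were on the 28 division genes. Heart had 1276 counts on the division genes and 81 on the dividing class.

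Per 100 CPM of division genes the dividing class had 13.7 ± 0.579 CPM in bone marrow, 10.8 ± 1.13 in thymus and 6.35 ± 0.501 in small intestine. It had 1.90 ± 0.779 in colon (1.18 to 2.92) and 0.248 ± 0.338 in lung (0 to 0.717). In the other 13 tissues the lowest library was skin at 3.47. Bone marrow did not have the highest ratio. Among the tissues with the lowest division scores it was 16.3 ± 2.81 in liver, 15.8 ± 3.98 in kidney and 15.4 ± 2.42 in brain, but 6.27 ± 1.39 in heart. The female reproductive tract had 19.3 ± 14.5, with a range of 7.94 to 39.2. Colon and lung are also the tissues whose libraries held the least Malat1 and mitochondrial rRNA, and the part of this in the low histone level was not tested.

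In the female reproductive tract the dividing class depended on 1 library. Its sum was 37.3 to 81.7 CPM in 3 libraries and 363 CPM in replicate 3, the shallowest library of the series. The excess lay in linker histones. Hist1h1e had 10.7, 17.2, 133 and 23.8 CPM, Hist1h1a 3.64, 4.42, 110 and 11.1, and Hist1h1b 9.21, 10.5, 64.4 and 22.97. The core histones Hist1h4d (4.85, 4.66, 8.31 and 8.51 CPM) and Hist1h2ae (2.42, 4.19, 2.08 and 0) showed no such excess. Replicate 3 held only 4 reads of Hist1h4d and 1 of Hist1h2ae, against 64 of Hist1h1e. One read was worth 2.08 CPM in that library, so the levels of these 2 core genes there are uncertain. Mki67 was also highest in replicate 3, at 141 CPM against 31.3 to 66.6. The ovarian hormone subunit gene Inha had 263, 270, 118 and 44.2 CPM in the 4 libraries, and the part of such differences between libraries in the histone level was not tested. Without the female reproductive tract libraries, 30 of the 37 members were still called higher in bone marrow and thymus.

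**Figure D3:**
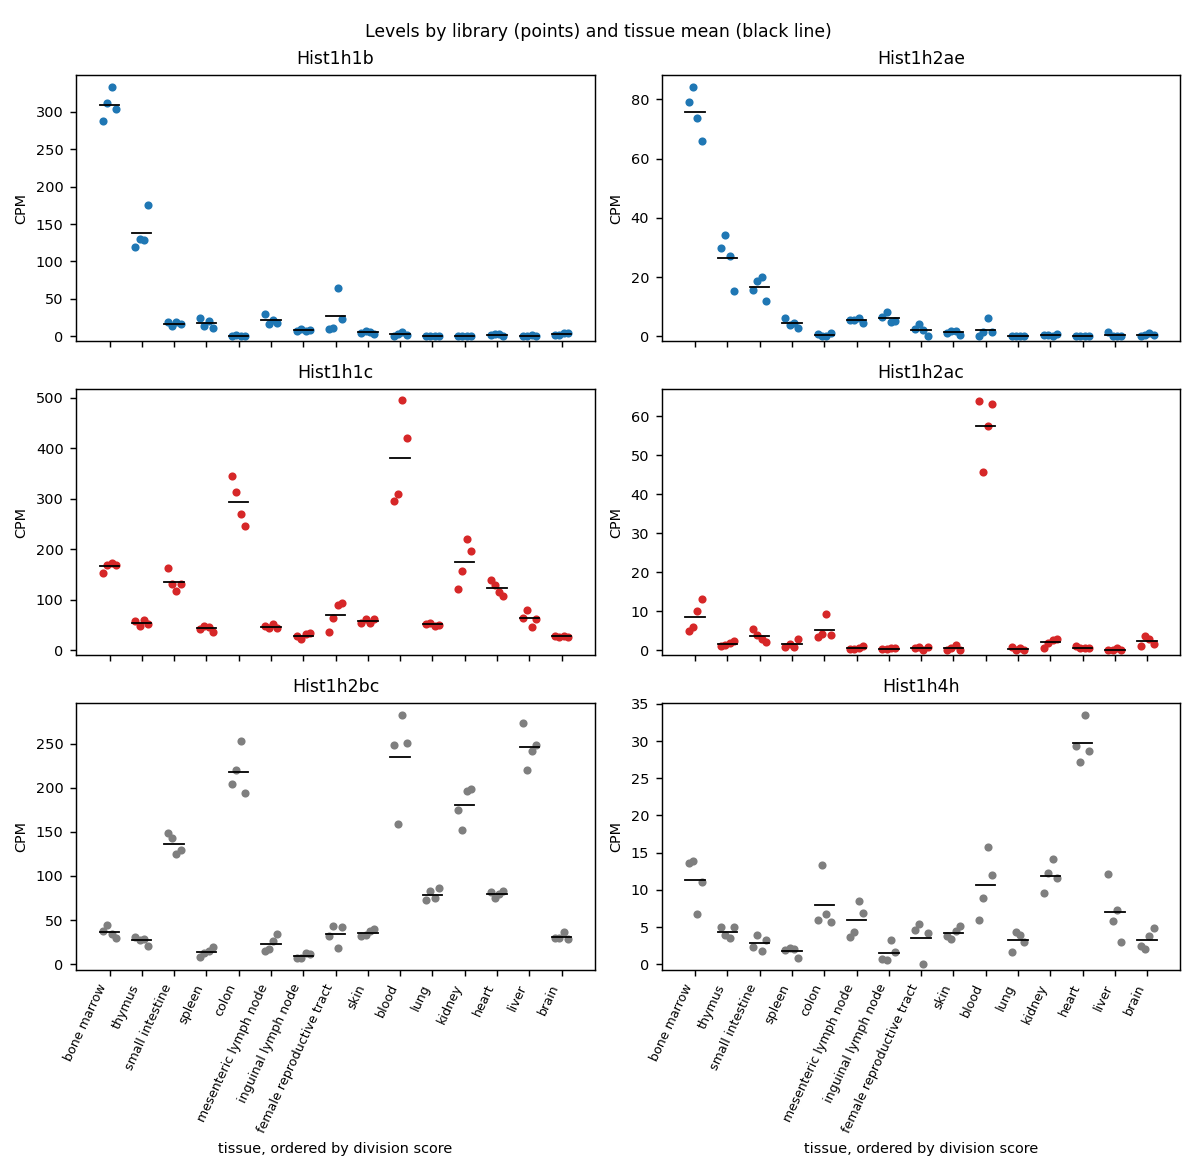
CPM of 6 members in each library (points) with the tissue mean (black line), tissues ordered by division score. Hist1h1b and Hist1h2ae fall from bone marrow to thymus to the other tissues, Hist1h2ac is high in the 4 blood libraries alone, and Hist1h1c, Hist1h2bc and Hist1h4h have their highest means in blood, liver and heart.

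The blood or colon class holds 1 linker histone, Hist1h1c (ENSMUSG00000036181, chr13:23738808-23740367 on the plus strand). It had 296, 309, 495 and 421 CPM in blood and 346, 313, 270 and 246 in colon, and these 2 tissues overlapped. Kidney followed with 121, 157, 221 and 197 CPM and bone marrow with 154, 169, 174 and 170. It was read in all 60 libraries, in lung at 49.02 to 54.85 CPM, where the dividing class was nearly without reads. Hist1h1c was higher in blood than in the mean of the other 14 tissues by 2.36 ± 0.10 on the log2 scale (edgeR adjusted p = 1.54e-29) and higher in colon by 1.96 ± 0.11 (edgeR adjusted p = 2.13e-23). In bone marrow and thymus it differed by 0.23 ± 0.09, which is under the fold limit.

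Hist1h2ac, an H2A gene (ENSMUSG00000069270, chr13:23681467-23683948 on the minus strand), was the member of this class with the largest ratio of its highest tissue to the next (57.5 against 8.55 CPM). Its levels were 63.9, 45.7, 57.4 and 63.04 CPM in blood, 4.95, 6.05, 10.1 and 13.1 in bone marrow and 3.39, 4.12, 9.23 and 3.82 in colon. Every blood library was above every other library, and the difference from the mean of the other tissues was 5.55 ± 0.18 (edgeR adjusted p = 3.08e-35). Hist1h4i, an H4 gene, had 64.8, 44.4, 68.5 and 61.9 CPM in blood and 47.4, 42.7, 47.9 and 41.5 in bone marrow, so that blood and bone marrow overlapped. Its correlation with the division score was 0.66, so it was high in dividing tissues as well as in blood.

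Hist1h2be, an H2B gene, had 14.5, 13.8, 20.1 and 17.5 CPM in blood and 12.4, 12.5, 8.97 and 11.007 in bone marrow, without overlap. Hist3h2a, an H2A gene of the chromosome 11 cluster, had 19.6, 21.7, 22.6 and 29.2 CPM in blood, 17.7, 20.3, 25.4 and 23.9 in kidney and 15.96, 19.1, 15.1 and 18.7 in brain. These 3 tissues overlapped. Hist1h3d, an H3 gene, had 6.82, 1.33, 7.89 and 13.2 CPM in blood and 4.95, 4.32, 5.61 and 10.6 in bone marrow.

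The 2 members with the highest mean in colon did not separate colon from its neighbours. Hist2h2be, an H2B gene, had 18.6, 13.4, 21.8 and 15.3 CPM in colon, 18.2, 18.6, 14.2 and 13.6 in bone marrow and 15.0, 12.9, 18.4 and 11.004 in thymus. Hist2h3c2, an H3 gene, had 0.848, 7.21, 2.52 and 6.69 CPM in colon and 2.18, 2.10, 6.23 and 5.96 in the female reproductive tract. With the added demand that the highest tissue exceed the next by 1.5 times, Hist1h2ac alone stayed in the blood or colon class, and 11 members fell in the other class. In 6 of the 8 members the libraries of the highest 2 tissues overlapped, Hist1h2ac and Hist1h2be being the exceptions.

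The other class held 4 genes. Hist1h2bc, an H2B gene (ENSMUSG00000018102, chr13:23684199-23692908 on the plus strand), had 273, 220, 242 and 248.8 CPM in liver, 248.9, 158, 283 and 251 in blood and 204, 220, 253 and 194 in colon, and these 3 tissues overlapped. Kidney (180 ± 21.8 CPM) and small intestine (136 ± 11.1) followed, and bone marrow had 37.9, 44.5, 34.03 and 29.2 CPM. Hist1h4h, an H4 gene (ENSMUSG00000060981, chr13:23531050-23531519 on the plus strand), had 29.3, 27.2, 33.5 and 28.7 CPM in heart and 9.55, 12.2, 14.2 and 11.6 in kidney, and the 4 heart libraries were above all others. Hist3h2ba, an H2B gene, had 7.28, 10.5, 6.599 and 9.21 CPM in brain, 8.25, 7.34, 9.35 and 6.77 in bone marrow and 10.6, 4.52, 7.77 and 6.88 in thymus. Hist2h4, an H4 gene, had 6.598, 7.77, 6.73 and 3.39 CPM in bone marrow and 2.48, 2.86, 4.36 and 1.49 in spleen.

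Against the mean of the other 14 tissues 19 of the 37 members were higher in blood and none was lower, where 18.1% of all genes were higher and 17.8% were lower. DESeq2's Wald test called 1 member lower, Hist1h1a. The 19 were 6 of the 8 blood or colon members, all 4 others and 9 of the 25 dividing members. With log2 of the plain tissue means, and tissues below 3 counts over their 4 libraries raised to that level, the median over the 37 members moved from 1.13 to 0.16. Of the 19 called members 12 stayed beyond the fold limit with this floor. Hist2h4, Hist1h4m, Hist1h4n, Hist1h2bk, Hist1h2bg and Hist1h3a came to 0.21 to 0.80, and Hist1h2bm turned to -0.44. For 5 dividing members without reads in 1 or more tissues the fit gave no usable SE, so these could not be called. Members without reads in other tissues were still called higher, such as Hist1h2bn, which had no read in 7 tissues. The absence of lower calls therefore does not show that these 5 were not lower in blood. The 9 dividing members had 0.187 to 3.05 CPM in blood, and for 6 of them this was below the plain mean of the other tissues. The comparison is of mean log levels, so for these 6 the call stands beside a lower plain mean. All blood libraries lay above all others for 2 of the 37 members, Hist1h2ac and Hist1h2be, against 2.91% of all genes. The 28 division genes went the other way, with 13 lower and 1, Cdt1, higher in blood (1.81 ± 0.16), a factor that licenses DNA for copying. Markers of platelets (6 of 6), B cells (7 of 7), T cells (7 of 7) and mature neutrophils (7 of 7) were higher in blood, and the part of each cell type in the histone levels was not tested.

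In colon 6 of the 37 members were higher than in the mean of the other 14 tissues and none was lower, where 17.7% of all genes were higher and 14.4% were lower. This share is near that of all genes, and no member had all colon libraries above all others, against 1.59% of all genes. For 14 of the 37, 13 of them dividing, the fit gave no usable SE because tissues had no read, so these could not be called lower whatever their level. The 6 were Hist1h2bc (2.06 ± 0.11), Hist1h1c, Hist1h2ac, Hist2h3c2, Hist2h2be and Hist1h3a. Hist1h3a, a dividing member, fell to -2.77 without colon replicate 1, and Hist2h3c2 and Hist2h2be lost their calls when 1 of 2 colon libraries each was left out. With the lung libraries left out of the fit, the H1 genes Hist1h1b and Hist1h1e and the H4 genes Hist1h4d and Hist2h4 were lower in colon. DESeq2's Wald test called Hist1h1b and Hist1h1e lower in colon.

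Blood was compared with bone marrow on their own 8 libraries, because many blood cells arise from dividing cells of the marrow. Of 34 members tested 25 were lower in blood and 4 were higher, where 17.9% of the 11325 genes tested were lower and 16.4% were higher. The 4 higher members were Hist1h2ac (2.71 ± 0.21, edgeR adjusted p = 2.96e-10), Hist1h2bc (2.68 ± 0.16), Hist3h2a (1.42 ± 0.20) and Hist1h1c (1.18 ± 0.12, edgeR adjusted p = 3.27e-08). The 25 lower members were all 23 tested members of the dividing class, Hist3h2ba and Hist2h4. Of these 25, 24 reached the minimum of the filter in fewer than 4 blood libraries and so passed it through bone marrow. The direction of these 24 was all but fixed by passing the filter, and their count is a description. All blood libraries lay below all bone marrow libraries for 24 members, 23 of the 25 called lower and Hist2h2be (-0.92 ± 0.26), which was not called, against 29.8% of all genes.

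The sizes spread widely among the dividing members. The log2 difference was -7.54 ± 0.26 for Hist1h1a, -6.77 ± 0.20 for Hist1h1b and -4.55 ± 0.23 for Hist1h1d. It was -3.91 ± 0.15 for Hist1h1e and -1.41 ± 0.36 for Hist1h4c, an H4 gene whose libraries overlapped between blood and bone marrow. Hist1h2ab, Hist1h2an and Hist1h3g had no read in blood. Against 3 counts over the 4 blood libraries they were at least 34.6-fold, 26.5-fold and 18.4-fold lower. The class was chosen for a high level in bone marrow, and 22 of the 23 passed the filter of this fit through bone marrow, reaching its minimum in fewer than 4 blood libraries. Their direction was therefore fixed by the choice, and these sizes are a description.

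Of the division genes 27 of 28 were lower in blood than in bone marrow, with a median of -4.57. Of 17 tested processing genes 8 were lower, including Slbp (-1.26 ± 0.18), and of 20 chaperones 10, including Asf1b (-4.45 ± 0.20). None of these lists had a member that was higher. Markers of neutrophil precursors (7 of 7) and red cell precursors (8 of 8) were lower in blood, while those of platelets (6 of 6, median 2.61), B cells (7 of 7) and T cells (7 of 7) were higher. The part of these cell types in the histone levels was not tested.

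**Figure D4:**
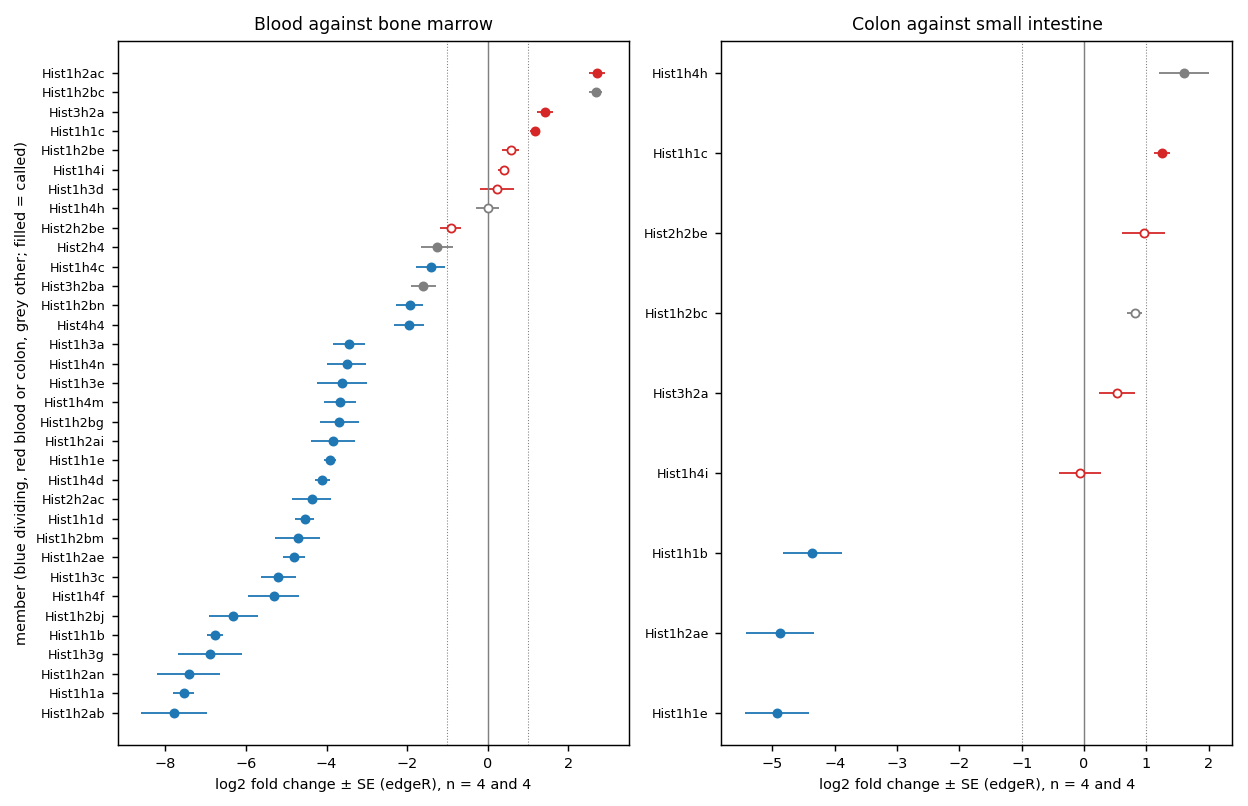
Log2 fold change with its SE for each tested member in blood against bone marrow (left, 34 members) and in colon against small intestine (right, 9 members). Filled points were called. All dividing members, in blue, lie to the left of -1 in both panels, and the values of Hist1h2ab, Hist1h2an and Hist1h3g, without a read in blood, depend on the prior count of the fit.

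Colon and small intestine both renew their lining from dividing cells, and they were compared on their own 8 libraries. Of the 9 members tested 3 were lower in colon and 2 were higher, where 13.5% of the 10773 genes tested were lower and 12.2% were higher. The 3 lower members were the only dividing members tested. All 3 passed the filter on low counts through small intestine, where they were high, so their direction was all but fixed by passing it, and the values are a description. Hist1h1b had 3 reads in the 4 colon libraries and 154 in small intestine, a ratio of 24.8 (95% exact binomial interval of the counts 8.33 to 122). Hist1h1e had 2 and 160 reads, a ratio of 38.7 (10.5 to 322), and Hist1h2ae 2 and 155 reads, a ratio of 37.4 (10.2 to 312). These intervals cover counting error only. The test over libraries gave -4.36 ± 0.47, -4.93 ± 0.51 and -4.87 ± 0.55 on the log2 scale (edgeR adjusted p = 4.84e-07, 3.1e-07 and 8.32e-07).

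Most division genes were not called. Of 25 tested 2 were lower in colon, Top2a (-1.21 ± 0.14) and Cenpf (-1.57 ± 0.21), and the median was -0.48. Top2a untwists DNA and Cenpf is a protein of the kinetochore. Mki67 had 52.4 CPM in colon and 99.9 in small intestine (-0.80 ± 0.17). Of 19 chaperone genes 5 were lower, with Supt16 (-3.63 ± 0.47), which moves histones off DNA, as the largest, and of 16 processing genes 1, Casp8ap2 (-1.84 ± 0.24). The higher members were Hist1h4h (1.60 ± 0.40, edgeR adjusted p = 0.00294), with 7.94 against 2.82 CPM, and Hist1h1c (1.26 ± 0.13, edgeR adjusted p = 3.46e-07), with 294 against 135 CPM. With library totals in place of TMM 4 members were higher, Hist2h2be (1.36) and Hist1h2bc (1.23) being added, while 1 was higher without small intestine replicate 1, 2 or 4, where Hist1h4h had no test under the filter on low counts. Enterocyte (6 of 6) and Paneth cell markers (7 of 7) were lower in colon and smooth muscle markers (7 of 7) were higher. Their part in the histone levels, and that of the low Malat1 of the colon libraries, was not tested.

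The annotated transcripts of the classes end differently. Bases after the stop codon had a median of 1290 in the blood or colon class (376 to 2192), 89 in the dividing class (0 to 4931) and 74.5 among the untested members. More than 300 bases were annotated for 8 of 8 blood or colon members, 2 of 4 others and 6 of 25 dividing members. The 6 were Hist1h1d, Hist1h1e, Hist1h4d, Hist1h4c, Hist1h3e and Hist4h4. The stem-loop was found in 7 of 8, 3 of 4 and 18 of 25. In the 7 blood or colon members 330 to 2010 annotated bases followed the stem-loop. In the 18 dividing members 3 to 4884 bases followed, and 100 or fewer in 10. Hist2h2be and Hist1h2bc hold no match to these letters. Transcripts annotated to end at the stop codon, as those of Hist1h1b and Hist1h2an, cannot show one. These are lengths in GENCODE M21 and not ends measured in these libraries.

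**Figure D5:**
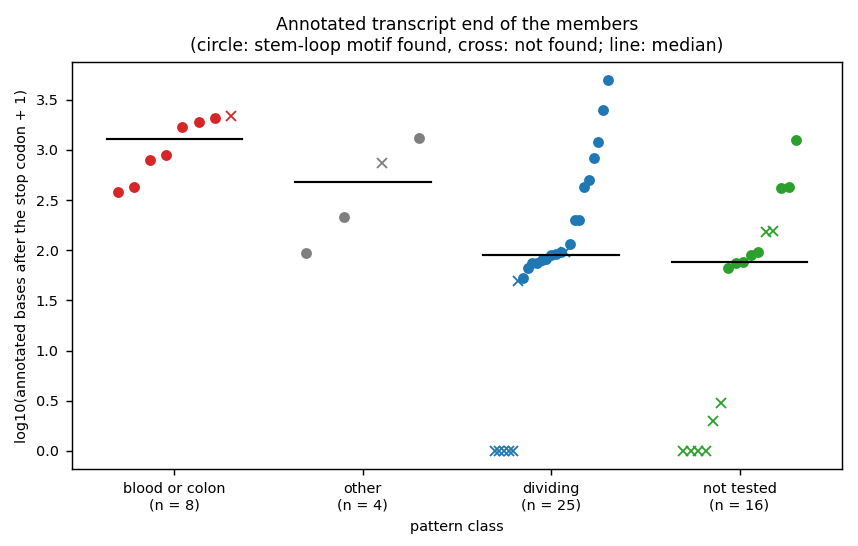
Annotated bases after the stop codon of each member that has a stop codon annotated, as log10(bases + 1), by pattern class, with the median as a line; circles have the stem-loop motif and crosses do not. All 8 blood or colon members lie above 300 bases, while most dividing members lie near 100 or below.

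The poly(A) signal letters AATAAA stood in the last 40 annotated bases of 3 of 8 blood or colon members (Hist1h1c, Hist3h2a and Hist2h2be), 2 of 25 dividing members and 2 of 4 others, against 57.9% of the 21674 protein-coding genes. By position, 19 members lay in a first block of chromosome 13 (21715763 to 22043676) and 27 in a second (23531050 to 23764406). The first block held 10 dividing members and 1 blood or colon member, Hist1h4i. The second held 13 dividing and 4 blood or colon members. Both classes therefore lie side by side in the same blocks.

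Promoters of RefSeq (GRCm38.p6, 250 bases before to 50 after the start) were matched for 48 of the 54 members. The letters CCAAT stood on either strand in 40 of 48, against 37.4% of 32851 promoters of the same length, and TATAAA in 31, against 13.6%. The octamer ATTTGCAT stood in 10, against 1.7%, and these were 6 of 12 H2A and 4 of 12 H2B promoters. Promoters of neighbouring H2A and H2B genes that run in opposite directions can overlap, so 1 site can count for 2 genes. The octamers of Hist1h2ae and Hist1h2bg are 1 site, as are those of Hist1h2ah and Hist1h2bk. CCAAT and TATAAA sites can be shared in the same way, so these are counts of promoters and not of separate sites. AAACACA, the letters of the H1 box, stood in 6, against 7.2%, among them 4 of 5 H1 promoters. By class, CCAAT stood in 20 of 24 dividing and 6 of 7 blood or colon promoters, TATAAA in 16 of 24 and 3 of 7, and the octamer in 6 of 24 and 2 of 7. The 150 bases before the start of 2 H1 and 2 H2A genes are printed, 1 of each pattern, with these letters in capitals on either strand.
Hist1h1b: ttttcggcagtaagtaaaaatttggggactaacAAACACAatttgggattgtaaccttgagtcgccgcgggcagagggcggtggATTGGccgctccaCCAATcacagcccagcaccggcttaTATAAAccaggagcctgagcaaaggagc
Hist1h1c: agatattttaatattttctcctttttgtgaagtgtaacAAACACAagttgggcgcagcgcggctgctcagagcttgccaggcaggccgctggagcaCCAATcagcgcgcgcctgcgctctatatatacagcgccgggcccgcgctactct
Hist1h2ae: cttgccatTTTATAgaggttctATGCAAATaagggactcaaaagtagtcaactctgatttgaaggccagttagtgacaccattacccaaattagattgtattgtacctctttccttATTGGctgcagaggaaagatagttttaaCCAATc
Hist1h2ac: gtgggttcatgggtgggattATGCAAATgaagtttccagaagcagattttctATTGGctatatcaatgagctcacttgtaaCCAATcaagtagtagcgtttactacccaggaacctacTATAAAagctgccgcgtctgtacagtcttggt
They lie at chr13:21780626-21780775 (minus strand), chr13:23738657-23738806 (plus), chr13:23571221-23571370 (minus) and chr13:23683960-23684109 (minus). Hist1h1b and Hist1h1c both hold the H1 box and CCAAT, and Hist1h2ae and Hist1h2ac both hold the octamer and CCAAT. The letters found in 16 of 24 dividing and 3 of 7 blood or colon promoters stood in Hist1h1b and not in Hist1h1c. Hist1h2ac holds them as TATAAA close to the start. In the printed bases of Hist1h2ae they stand only on the other strand, as TTTATA at the end far from the start. Those bases are also the TATAAA of the promoter of Hist1h2bg, which runs the other way, so the 2 H2A genes are not alike in this element. Hist1h1b and Hist1h2ae were highest in bone marrow, and Hist1h1c and Hist1h2ac in blood. These promoters are examples, and the part of such letters in the patterns was not tested.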

How the data were processed

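The deposited table holds raw counts, which are reads assigned to genes by the authors. FastQC, STAR, featureCounts and the build mm10 are named in the submitters' processing notes. For versions, the strand setting and the treatment of reads with several matches, the sources used here give nothing. All 60 columns were used. Genes were kept with filterByExpr by tissue (minimum count 10, minimum total 15), scaled by TMM and tested with glmQLFit and glmQLFTest of edgeR 4.0.16 in R 4.3.3, with limma 3.58.1, two-sided, with Benjamini-Hochberg adjustment over all tested genes. A member was called where its adjusted p was below 0.05 and its log2 fold change beyond 1 in either direction. The SE is the log2 fold change divided by the square root of F. Contrasts with many tissues were fitted over the 60 libraries on tissue alone, and pairs used their own 8. The contrast compares mean log levels, and members without reads in a tissue can have no finite SE. Such values are not printed.

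The procedure was tested on simulated data. Members, classes and gene lists were chosen with earlier results of these data known. In each class up to 8 members with the highest tissue mean are given by library, and from another list up to 4 genes by fold size. Alternatives were other scalings, no filter, DESeq2 1.42.0, a replicate block, leaving out libraries and other class limits. Those without colon, lung or female reproductive tract libraries were chosen after seeing the data. Sequences came from GENCODE M21 transcripts and RefSeq promoters, matched by symbol or synonym. Replicate numbers were not used to pair libraries in the main fits. Same-numbered libraries of 2 tissues had a median correlation of deviations of 0.016, and 1.67% of 420 such pairs were above 0.1. Low correlations cannot tell whether such libraries came from 1 mouse, since deviations of 2 organs of a mouse need not go together.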

Additional observations from a re-analysis of the deposited data

Results flagged for a closer look

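Summed levels of the members and of their classes were screened in 80 groups of 4 libraries for 1 library that lies far from the other 3, and 7 were found. Chance alone gives about 1 in 20. In bone marrow replicate 3 was high, at 1499 CPM for all members (1364 to 1383 in the others) and 1105 CPM for the dividing class (1001 to 1003). In brain replicate 1 was low for all members, at 117 CPM (132 to 134). In the female reproductive tract replicate 3 was high for the dividing class, at 363 CPM (37.3 to 81.7). For the blood or colon class replicate 2 was low in inguinal lymph node at 45.7 CPM (58.8 to 59.8), replicate 4 was high in skin at 99.7 CPM (89.5 to 91.1), and replicate 1 was high in small intestine at 206 CPM (165 to 170).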

How the results depend on the processing

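Members called in bone marrow and thymus, and in blood against bone marrow, kept their direction under every alternative run, and Hist2h4 alone lost a call there (blood against bone marrow, -0.99 with library totals). In blood against the other tissues 24 values of called members lost the call and 185 kept it. In colon 5 lost it, 60 kept it and 1 reversed, which was Hist1h3a, at -2.77 without colon replicate 1 and up to 2.48 without another colon library. The count of members lower in bone marrow and thymus rose from 1 to 2 with DESeq2 size factors, with the DESeq2 Wald test and without the female reproductive tract, and was 1 to 2 when 1 library was left out; the gain was Hist1h2bc. With no filter 47 members were higher there and 44 were lower in blood against bone marrow, where more genes were tested. The count lower in blood was 1 with the Wald test and 1 without colon and lung libraries. The count lower in colon was 2 with the Wald test, 4 without lung and 0 to 1 when 1 library was left out. In colon against small intestine 4 members were higher with library totals, and 1 to 3 when 1 library was left out. A replicate block gave 30, 18, 6, 4 and 3 higher members in the 5 comparisons. Library totals moved the median log2 difference of all genes by over 0.1: from -0.11 to 0.09 in bone marrow and thymus, from -0.18 to 0.02 in blood, from -0.15 to 0.22 in colon, from 0.01 to 0.29 in blood against bone marrow and from 0.03 to 0.44 in colon against small intestine. A margin of 1.5 left 1 blood or colon and 11 other members. A correlation of at least 0.7 left 14 dividing and 15 other members. Summed levels by library totals were 754 CPM in colon, 117 in heart, 138 in inguinal and 244 in mesenteric lymph node, 336 in kidney, 182 in liver, 216 in lung, 171 in skin, 348 in small intestine, 236 in spleen and 779 in thymus. By DESeq2 size factors they were 138 in brain, 101 in inguinal lymph node and 182 in lung. The cause of these changes was not tested. One read is worth 0.839 to 1.03 CPM in colon and 0.662 to 0.871 in lung, which limits the low members there.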
